A study of Homo sapiens with 24 samples.

Results

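The genes described here are 10 members of the Hippo pathway: the transcriptional coactivators YAP1 and WWTR1 (also called TAZ), the DNA-binding factor TEAD1, the target genes CTGF, CYR61 and ANKRD1 (CTGF and CYR61 are now named CCN2 and CCN1), and the regulators AMOTL1, AMOTL2, AJUBA and LATS2. They were chosen by name, with earlier results of these data known. All 10 were found among the 57820 rows of the table and passed the filter on low values that left 17860 genes. RNA was sequenced from RBE and SNU1079, human cholangiocarcinoma (bile duct cancer) cell lines that both carry mutant IDH1 and express the sulfotransferase SULT1A1. Cells of each line were kept with YC-1 or with its vehicle DMSO, and were collected at 6 h or at 16 h, so that 24 libraries form 8 groups of 3 biological replicates. YC-1 is an indazole compound that stimulates soluble guanylate cyclase and inhibits HIF-1, and the series title places it among alkylating agents that depend on sulfonation. Times were taken from the sample titles, because a second time label disagrees with them: it puts all DMSO samples at 16 h and all YC-1 samples at 6 h. Each line stands for 1 tumour, and a YC-1 dose is not given in the sources used here.

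In the Hippo pathway, the kinases MST1 and MST2 activate LATS1 and LATS2, which phosphorylate YAP1 and WWTR1 and keep them out of the nucleus. Unphosphorylated YAP1 and WWTR1 enter the nucleus, bind TEAD factors and switch on genes for matrix proteins, cytoskeletal proteins and their own inhibitors. In the liver the pathway limits organ size and shapes bile duct identity, and YAP1 activity is a known feature of cholangiocarcinoma. RNA levels report neither phosphorylation nor the place of YAP1 in the cell.

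The sequences before the starts of these genes are shown because TEAD factors bind a site with the core GGAATG. AP-1 factors share many enhancers with TEAD, and their sites were sought with the loose pattern TGANTCA, in which N is any base. The windows are the 250 bases before each start in RefSeq, build GRCh38.p14, searched on both strands for GGAATG (written CATTCC on the other strand) and for TGANTCA; no match of one overlapped a match of the other. Entries matched 8 of the 10 members, all but TEAD1 and CYR61. Capitals mark the matches, and each sequence runs 5′ to 3′ on the gene's strand.
CTGF, chr6:131951374-131951622, minus strand: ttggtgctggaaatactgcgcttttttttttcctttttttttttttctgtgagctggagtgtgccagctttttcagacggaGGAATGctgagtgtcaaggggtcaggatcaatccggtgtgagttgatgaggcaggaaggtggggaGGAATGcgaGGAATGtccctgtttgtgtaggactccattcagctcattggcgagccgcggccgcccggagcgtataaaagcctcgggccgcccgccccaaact
ANKRD1, chr10:90921277-90921337, minus strand: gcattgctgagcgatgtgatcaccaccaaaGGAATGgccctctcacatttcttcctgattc
ANKRD1, AP-1 match, chr10:90921265-90921293, minus strand: acatttcttccTGATTCAcatattcagca
ANKRD1, nearer match, chr10:90921199-90921226, minus strand: acactgagtctGGAATGaaaattcacct
YAP1, chr11:102110274-102110301, plus strand: gggagtgtgcaGGAATGtagcaacttgc
AMOTL2, second start, chr3:134374500-134374527, minus strand: tgaaactctcaCATTCCtggcatagcag
AJUBA, second start, chr14:22976885-22976912, minus strand: ggaagttggctGGAATGaagccaaagca
The CTGF window held 3 matches to the TEAD core, beginning 169, 104 and 95 bases before the start. ANKRD1 held 2, at 220 and 128 bases before its RefSeq start, with the AP-1 match between them at 195 bases. The GENCODE annotation, used for the gene spans below, places the start of ANKRD1 farther upstream, at chr10:90921276 on the minus strand. The nearer TEAD match therefore lies inside the GENCODE gene, and the AP-1 match crosses the GENCODE start. Single matches lay 162 bases before the YAP1 start, 69 before the second AMOTL2 start and 59 before the second AJUBA start. Of 35116 windows of the same length, 11.9% held the TEAD core at least once, 0.940% at least 2 times and 0.0826% at least 3 times, while 6.57% held the AP-1 motif and 1.06% held both. No match was found in the windows of WWTR1, AMOTL1 and LATS2 or before the first starts of AMOTL2 and AJUBA. All windows of WWTR1 and AMOTL1 lie inside the GENCODE spans of these genes, as do the windows before the second starts of AMOTL2 and AJUBA. The sequence before the GENCODE starts of WWTR1 and AMOTL1 was not searched, so the absence of a match holds only for the RefSeq windows. A match is a run of letters and not evidence of binding, and no binding was measured here.

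The deposited normalised counts summed to between 19005743 and 21579996 per DMSO library and between 20426118 and 27008873 per YC-1 library. Read depth itself is unknown, because the values are not whole reads. The share of the sum from mitochondrially encoded genes was 6.02% to 8.50% under DMSO, 15.4% to 17.0% in RBE after 16 h of YC-1, and 3.38% to 22.1% in the matching SNU1079 libraries. Of the latter, YC-1 16 h replicate 2 was at 3.38%, and replicates 1 and 3 were at 18.1% and 22.1%. Of the cholangiocyte markers, 6 of 7 found in the table were present in each line (KRT7, KRT19, SOX9, EPCAM, SOX4 and SPP1), and CFTR was at or near 0. Defining genes of hepatocytes (ALB, APOA1, APOB), stroma (DCN, LUM, COL3A1) and leukocytes (PTPRC, CD3E) were at or near 0 in both lines. Other genes of those marker lists were present: SERPINA1 (1134 to 2142 across the lines), CD68 (1036 to 4110), COL1A1 in SNU1079 (661 to 3808) and HNF4A in RBE (median 141), with PDGFRB and, in RBE, LYZ at medians of 33.3 to 60.2. Their part in the results was not tested. In each of 3 SNU1079 groups the library with the largest median absolute deviation from its group was left out as an alternative: DMSO 16 h replicate 1 (0.234, log2), YC-1 6 h replicate 1 (0.322) and YC-1 16 h replicate 2 (0.284). YC-1 16 h replicate 3, at 0.255, was kept although it lay farther from its group than the first of these. Calls of members that change without the 3 libraries are given both ways below.

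Across the 4 comparisons of YC-1 with DMSO, AMOTL2 and LATS2 rose in both lines at both times, and YAP1, TEAD1 and CYR61 fell in both lines at both times. With ribosomal protein genes as the reference, AMOTL2 and LATS2 were called higher in some of these comparisons and not in others, as given for each gene below. With that reference the falls of YAP1 and TEAD1 in RBE at 6 h were not called (adjusted p = 0.127 and 0.0778, limma). The YAP1 call in SNU1079 at 6 h was lost without any 1 of 14 libraries. In RBE at 6 h, 3 members were higher and 4 lower by limma's moderated test at a Benjamini-Hochberg adjusted p under 0.05, where 11.6% of all genes tested were called higher and 12.4% lower (24.0% in all). In RBE at 16 h, 3 members were higher and 6 lower, against 27.3% and 26.6% of all genes (53.9% in all). In SNU1079 at 6 h, 5 members were higher and 4 lower, against 14.0% and 14.2% of all genes (28.2% in all). In SNU1079 at 16 h, 3 members were higher and 5 lower, against 28.7% and 25.8% of all genes (54.5% in all). Counted by libraries that did not overlap, YC-1 lay above DMSO for 5 members and below for 5 in RBE at 6 h (23.5% and 24.6% of all genes), and for 3 and 7 in RBE at 16 h (35.6% and 33.5%). In SNU1079 it lay above for 4 and below for 5 at 6 h (20.1% and 20.2%), and for 2 and 4 at 16 h (26.8% and 24.5%). All members but AMOTL1 had a mean of at least 500 over the libraries, and among the 6935 tested genes at that level 31.2%, 67.9%, 35.5% and 66.9% were called in the same 4 comparisons. Called higher in all 4 were 6.18% of genes, and called lower in all 4 were 7.5%. The median log2 fold change of the members was -0.15, -0.58, 0.08 and -0.27, against 0.00, 0.02, 0.01 and 0.06 for all genes tested. With the libraries rescaled to equal sums, which shifts the median of all genes by -0.33 in RBE and -0.36 in SNU1079 at 16 h, the 16 h counts became 2 higher and 7 lower in RBE and 1 higher and 6 lower in SNU1079. With ribosomal protein genes as the reference, which shifts the median of all genes by -0.83 in RBE at 16 h and, for SNU1079, by -0.20 at the early and -0.47 at the late time, RBE had 3 higher and 1 lower at 6 h and 0 higher and 8 lower at 16 h, and SNU1079 had 0 higher and 4 lower at 6 h and 1 higher and 6 lower at 16 h. Fold changes are on the scale of log2(normalised count + 1), with the SE of the fit.

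**Figure D1:**
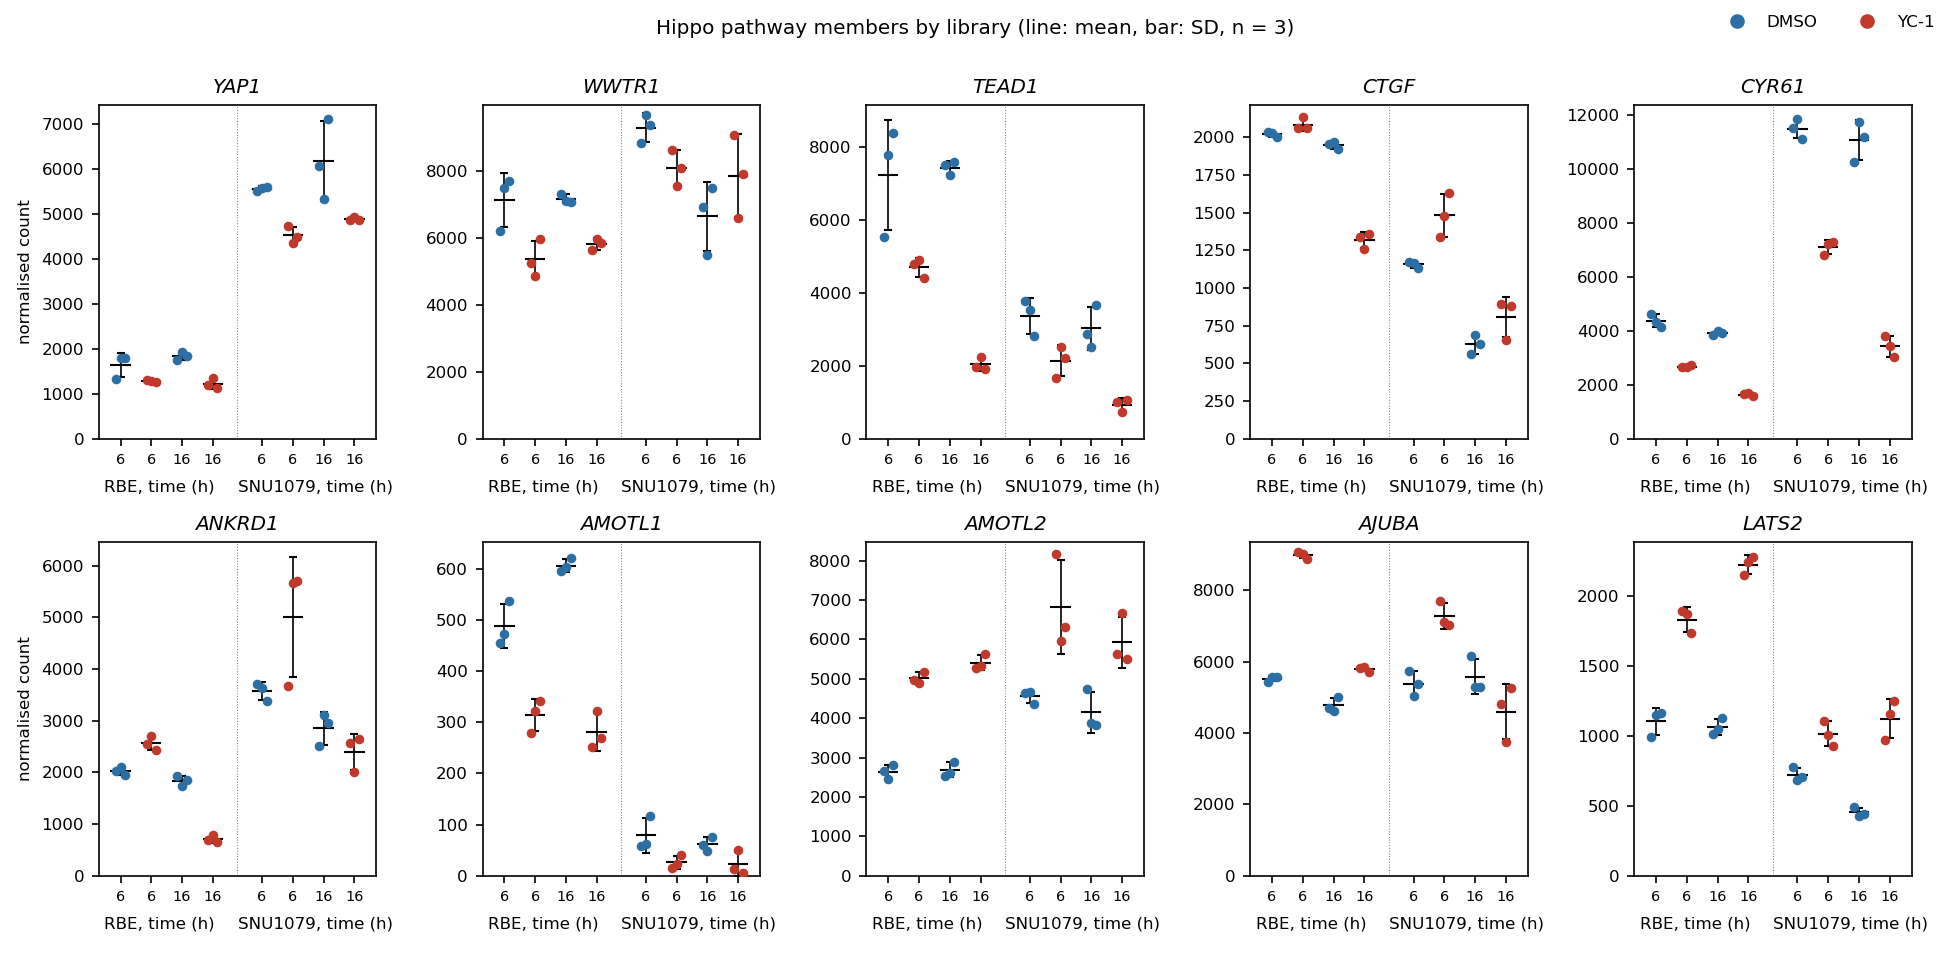
Normalised count of each member in every library (points) by line and hours of treatment, with the group mean (line) and SD (bar), n = 3. TEAD1 and CYR61 after 16 h of YC-1 lie below every DMSO library of the same line, and LATS2 lies above every DMSO library of the same line and time.

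YAP1, the coactivator that gives the pathway its output, fell in both lines. YAP1 in RBE read 1321, 1788 and 1805 under DMSO at 6 h and 1297, 1272 and 1270 under YC-1, and at 16 h it read 1758, 1934 and 1830 under DMSO and 1196, 1341 and 1115 under YC-1. The groups did not overlap at either time, and at 6 h DMSO replicate 1 lay close to the YC-1 libraries. In SNU1079 YAP1 read 5508, 5586 and 5612 under DMSO and 4734, 4363 and 4483 under YC-1 at 6 h, and 6065, 5347 and 7124 against 4877, 4943 and 4871 at 16 h. All YC-1 libraries of SNU1079 lay below the DMSO libraries of the same time. YAP1 fell by 0.34 ± 0.11 (SE, adjusted p = 0.0273, limma) and 0.60 ± 0.11 (adjusted p = 0.000103) on the log2 scale in RBE at 6 h and 16 h, and by 0.30 ± 0.11 (adjusted p = 0.047) and 0.33 ± 0.11 (adjusted p = 0.0166) in SNU1079. The 6 h calls were close to the threshold. In RBE at 6 h the call was lost without DMSO 6 h replicate 2 (-0.27) or 3 (-0.26) or without any of the YC-1 6 h replicates (-0.35 to -0.34). In SNU1079 at 6 h it was lost without any 1 of 14 libraries, at values of -0.31 to -0.27: RBE DMSO 16 h replicates 1, 2 and 3, RBE YC-1 6 h replicates 1, 2 and 3, RBE YC-1 16 h replicate 1, SNU1079 DMSO 6 h replicates 1, 2 and 3, SNU1079 YC-1 6 h replicates 2 and 3, SNU1079 DMSO 16 h replicate 1 and SNU1079 YC-1 16 h replicate 1. The 16 h call in SNU1079 was lost without DMSO 16 h replicate 3 (-0.22) and with array weights (adjusted p = 0.104). The RBE 6 h call was also lost with ribosomal protein genes as the reference (adjusted p = 0.127) and with no filter (0.0511), and the SNU1079 6 h call with no filter (0.0833), with no intensity trend (0.0727) and in a fit of that line alone (0.0557).

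WWTR1, the paralogue of YAP1, fell in RBE and did not pass the test in SNU1079. In RBE it read 6200, 7481 and 7680 under DMSO and 5249, 4862 and 5943 under YC-1 at 6 h, and 7314, 7089 and 7069 against 5615, 5960 and 5850 at 16 h. The groups did not overlap, and the log2 fold changes were -0.41 ± 0.12 (adjusted p = 0.0144, limma) and -0.30 ± 0.12 (adjusted p = 0.0381). The 16 h call was lost when any 1 of the 6 libraries compared was left out (-0.32 to -0.28), and the 6 h call without DMSO 6 h replicate 2 (-0.37) or 3 (-0.35) or YC-1 6 h replicate 2 (-0.34). The 16 h call was also lost with no filter (adjusted p = 0.0679) and with no intensity trend (0.0609), and the 6 h call with ribosomal protein genes as the reference (0.0609). In SNU1079 WWTR1 read 8819, 9661 and 9359 against 8603, 7543 and 8074 at 6 h, and 6914, 5483 and 7490 against 9067, 6586 and 7905 at 16 h. The 6 h groups did not overlap and the 16 h groups did. The log2 differences were -0.20 (95% interval -0.45 to 0.05, adjusted p = 0.231, limma) and 0.24 (95% interval -0.00 to 0.49, adjusted p = 0.0892), and the latter was -0.12 with equal sums and -0.23 with ribosomal protein genes as the reference. At 16 h WWTR1 passed the test in SNU1079 without DMSO 16 h replicate 3 (0.34), without YC-1 16 h replicate 2 (0.37) and once the 3 libraries named above were dropped (0.40, adjusted p = 0.0112), while without DMSO 16 h replicate 2 or YC-1 16 h replicate 1 it was 0.11 or 0.13. The effect of YC-1 at 16 h differed between the lines by 0.55 ± 0.17 (adjusted p = 0.0332), higher in SNU1079.

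TEAD1, which carries the coactivators to DNA, had the largest fall among the members in RBE at 16 h. It read 5524, 7782 and 8390 under DMSO and 4795, 4896 and 4402 under YC-1 in RBE at 6 h, and 7502, 7220 and 7572 against 1969, 2232 and 1909 at 16 h. Every YC-1 library lay below every DMSO library of its time. The fall was 1.52-fold at 6 h (log2 -0.60 ± 0.18, adjusted p = 0.0158, limma) and 3.66-fold at 16 h (log2 -1.87 ± 0.18, adjusted p = 1.77e-08). In SNU1079 TEAD1 read 3760, 3517 and 2821 against 1667, 2510 and 2214 at 6 h, and 2880, 2515 and 3663 against 993.6, 715.5 and 1070 at 16 h. The groups did not overlap there either, and the fall was 1.59-fold (adjusted p = 0.00662, limma) and 3.26-fold (adjusted p = 7.23e-08). The 6 h call in RBE was lost without DMSO 6 h replicate 2 (-0.54) or 3 (-0.48) or YC-1 6 h replicate 3 (-0.55), and with ribosomal protein genes as the reference (adjusted p = 0.0778). The 6 h call in SNU1079 was lost in a fit of that line alone (adjusted p = 0.0533). The fall deepened from 6 h to 16 h by 1.27 ± 0.25 in RBE (adjusted p = 0.0014) and by 1.04 ± 0.25 in SNU1079 (adjusted p = 0.00743), as log2 differences of 2 effects.

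CTGF, CYR61 and ANKRD1 are the target genes most often read as a measure of YAP1 and TEAD activity. At 6 h CYR61 fell in both lines, while CTGF and ANKRD1 were not called lower in either. In RBE at 16 h all of them fell, with log2 fold changes of -0.56 (CTGF), -1.26 (CYR61) and -1.39 (ANKRD1). In SNU1079 at 16 h CYR61 fell, and the values of CTGF and ANKRD1 depended on the scaling, as given below. CTGF and CYR61 encode secreted matrix-associated proteins, and ANKRD1 encodes a nuclear and sarcomeric ankyrin repeat protein. CYR61 read 4634, 4343 and 4138 under DMSO and 2639, 2638 and 2735 under YC-1 in RBE at 6 h, and 3833, 3981 and 3918 against 1643, 1672 and 1584 at 16 h. In SNU1079 it read 11529, 11843 and 11128 against 6794, 7229 and 7282 at 6 h, and 10280, 11745 and 11198 against 3795, 3446 and 3022 at 16 h. No DMSO and YC-1 groups overlapped in either line. CYR61 fell 1.64-fold and 2.39-fold in RBE (adjusted p = 1.16e-06 and 5.07e-11, limma) and 1.62-fold and 3.25-fold in SNU1079 (adjusted p = 1.22e-06 and 1.01e-12), with an SE of 0.08 on the log2 scale. These calls held in every alternative run. At 16 h the fall was larger in SNU1079 by 0.44 ± 0.11 (log2, adjusted p = 0.0121). That difference between the lines was not called with ribosomal protein genes as the reference, where 0 members were called lower.

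CTGF, by contrast, read 2032, 2026 and 1998 under DMSO and 2059, 2134 and 2060 under YC-1 in RBE at 6 h, a log2 difference of 0.05 (95% interval -0.18 to 0.27, adjusted p = 0.826, limma). At 16 h in RBE it read 1955, 1969 and 1920 against 1340, 1257 and 1355, and it fell by 0.56 ± 0.11 (adjusted p = 0.000137). The effects at the 2 times in RBE differed by -0.61 ± 0.15 (adjusted p = 0.00749). In SNU1079 CTGF read 1171, 1165 and 1132 against 1338, 1475 and 1629 at 6 h, and 559.5, 688.4 and 627.6 against 889.6, 651.9 and 877.2 at 16 h. The 16 h groups overlapped through YC-1 replicate 2. CTGF rose in SNU1079 by 0.35 ± 0.11 at 6 h (adjusted p = 0.0164, limma) and by 0.36 ± 0.11 at 16 h (adjusted p = 0.00742), but with equal sums the 16 h value was -0.0041 and with ribosomal protein genes as the reference -0.12. With that reference the 6 h value was 0.15 (adjusted p = 0.548). Fitted on SNU1079 libraries alone, neither passed (adjusted p = 0.102 and 0.0522), and the 6 h call was lost without DMSO 6 h replicate 3 (0.34) or YC-1 6 h replicate 3 (0.28). At 16 h the effect in SNU1079 exceeded that in RBE by 0.92 ± 0.15 (adjusted p = 0.000337).

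ANKRD1 in RBE read 2029, 2109 and 1954 under DMSO and 2554, 2707 and 2429 under YC-1 at 6 h, with all YC-1 libraries above the DMSO libraries but no call (0.34, 95% interval 0.05 to 0.63, adjusted p = 0.0886, limma). It was called higher there without SNU1079 YC-1 6 h replicate 1 (adjusted p = 0.0187), which takes no part in the RBE means but does in the shared spread, and without the 3 libraries named above (adjusted p = 0.00112). At 16 h in RBE it read 1921, 1743 and 1855 against 686.1, 778.8 and 647.2 and fell by 1.39 ± 0.14 (adjusted p = 4.02e-08). The 2 times in RBE differed by -1.72 ± 0.20 (adjusted p = 9.24e-06), the largest change with time among the members. In SNU1079 ANKRD1 read 3711, 3633 and 3375 against 3677, 5671 and 5703 at 6 h, where YC-1 replicate 1 lay among the DMSO libraries, and 2502, 3114 and 2949 against 2559, 1999 and 2641 at 16 h, where the groups overlapped. It rose by 0.46 ± 0.14 at 6 h (adjusted p = 0.0159, limma), a call lost without DMSO 6 h replicate 3 (0.42) or YC-1 6 h replicate 2 (0.36) or 3 (0.35), and in a fit of that line alone (adjusted p = 0.105). The 6 h call was also lost with ribosomal protein genes as the reference (0.26, adjusted p = 0.36). The 16 h difference was -0.26 (95% interval -0.55 to 0.03, adjusted p = 0.128), and -0.13 without YC-1 16 h replicate 2. It was a called fall with equal sums (-0.62, adjusted p = 0.000291) and with ribosomal protein genes as the reference (-0.73, adjusted p = 0.00288). The 16 h difference also passed the test without SNU1079 YC-1 6 h replicate 1 (adjusted p = 0.04) and without the 3 libraries named above (-0.22, adjusted p = 0.0394). At 16 h the effect differed between the lines by 1.13 ± 0.20 (adjusted p = 0.000604).

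**Figure D2:**
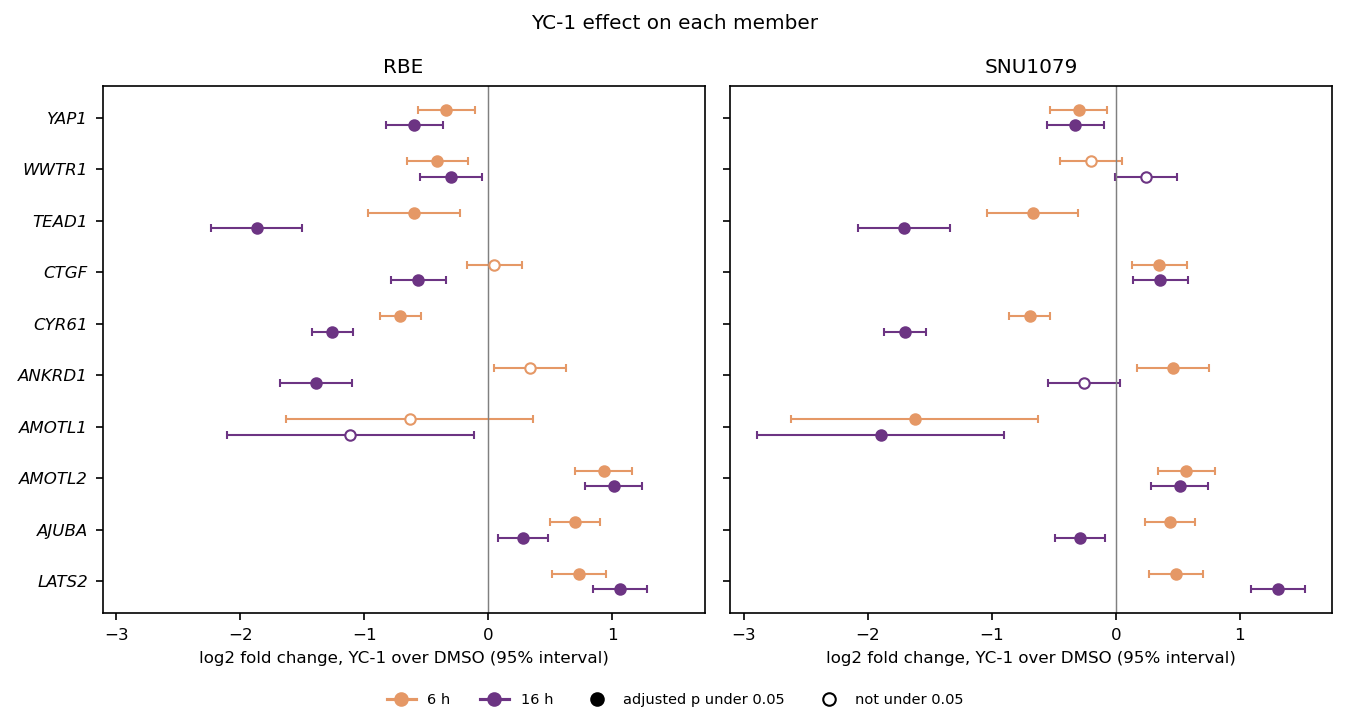
Log2 fold change of YC-1 over DMSO with its 95% interval for each member, in RBE (left) and SNU1079 (right), at 6 h (orange) and 16 h (purple), with filled points where the adjusted p was under 0.05. CYR61 and TEAD1 lie left of 0 at both times in both lines, while CTGF at 16 h is at -0.56 in RBE and 0.36 in SNU1079, the latter -0.0041 with libraries rescaled to equal sums.

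The negative regulators divided into AMOTL2 and LATS2, which rose, and AMOTL1, whose values were lower. AMOTL1 and AMOTL2 encode angiomotin-like proteins that hold YAP1 at junctions and in the cytoplasm. AMOTL2 read 2660, 2443 and 2807 under DMSO and 4971, 4905 and 5181 under YC-1 in RBE at 6 h, and 2534, 2619 and 2898 against 5285, 5313 and 5621 at 16 h. In SNU1079 it read 4634, 4671 and 4359 against 8180, 5962 and 6313 at 6 h, and 4741, 3866 and 3834 against 5622, 6672 and 5496 at 16 h. The groups did not overlap in any of the 4 comparisons. The log2 increases were 0.93 ± 0.11 and 1.01 ± 0.11 in RBE (adjusted p = 2.1e-06 and 1.32e-07, limma) and 0.57 ± 0.11 and 0.52 ± 0.11 in SNU1079 (adjusted p = 0.000497 and 0.000469). The 16 h values fell short of the threshold at 0.18 in RBE and 0.04 in SNU1079 with ribosomal protein genes as the reference, as did the 6 h value in SNU1079 at 0.36 (adjusted p = 0.0514). With equal sums the 16 h value in SNU1079 fell short at 0.16.

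AMOTL1 in RBE read 454.4, 472.1 and 536.8 under DMSO and 279.8, 321.6 and 342.1 under YC-1 at 6 h, and 594.9, 603.7 and 620.7 against 251.4, 321.9 and 268.8 at 16 h. The groups did not overlap, yet neither difference passed (-0.63, 95% interval -1.63 to 0.36, adjusted p = 0.392, and -1.12, 95% interval -2.11 to -0.12, adjusted p = 0.0546, limma). The SE of 0.48 (log2) is shared with SNU1079, where AMOTL1 was low and spread widely. In a fit of the RBE libraries alone both passed (adjusted p = 0.000998 and 6.08e-06). The 16 h call in RBE was also reached without SNU1079 YC-1 16 h replicate 2 or 3 or YC-1 6 h replicate 1 or 3 (adjusted p = 0.0063, 0.0155, 0.0445 and 0.0467), and without the 3 libraries named above (0.00253). In SNU1079 AMOTL1 read 57.35, 61.19 and 117.1 against 14.05, 22.73 and 40.32 at 6 h, and 60.52, 48.91 and 75.95 against 13.24, 50.03 and 5.312 at 16 h, with an overlap through YC-1 16 h replicate 2. It fell by 1.62 ± 0.48 (adjusted p = 0.0141, limma) and 1.90 ± 0.48 (adjusted p = 0.00211), and the 16 h value was -1.20 without YC-1 16 h replicate 3. The 6 h call was lost without DMSO 6 h replicate 3 (-1.30) or YC-1 6 h replicate 1 (-1.27), and in a fit of SNU1079 alone (adjusted p = 0.139).

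LATS2, the kinase that phosphorylates YAP1 and is itself a YAP1 target, read 993.2, 1151 and 1163 under DMSO and 1892, 1870 and 1732 under YC-1 in RBE at 6 h, and 1015, 1052 and 1127 against 2147, 2246 and 2275 at 16 h. In SNU1079 it read 777, 685.4 and 702.6 against 1107, 1009 and 927.9 at 6 h, and 487.5, 424.3 and 443.6 against 968.7, 1154 and 1248 at 16 h. Every YC-1 library was above every DMSO library of its line and time. LATS2 rose 1.66-fold and 2.09-fold in RBE (adjusted p = 1.85e-05 and 2.94e-08, limma) and 1.40-fold and 2.47-fold in SNU1079 (adjusted p = 0.00118 and 1.71e-09). With ribosomal protein genes as the reference, neither the 16 h value in RBE (0.23 on the log2 scale, adjusted p = 0.272) nor the 6 h value in SNU1079 (0.28, adjusted p = 0.252) passed. In SNU1079 the effect grew by 0.82 ± 0.15 from 6 h to 16 h (adjusted p = 0.000769), over a DMSO level that was itself lower at 16 h.

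AJUBA encodes a LIM-domain scaffold that binds LATS kinases and restrains them. In RBE it read 5436, 5566 and 5569 under DMSO and 9064, 9021 and 8888 under YC-1 at 6 h, and 4698, 4623 and 5021 against 5829, 5840 and 5716 at 16 h. In SNU1079 it read 5730, 5038 and 5387 against 7705, 7113 and 7037 at 6 h, and 6151, 5295 and 5296 against 4804, 3743 and 5252 at 16 h. All 4 pairs of groups were apart, with the YC-1 libraries higher in 3 and lower in SNU1079 at 16 h. AJUBA rose by 0.70 ± 0.10 and 0.28 ± 0.10 in RBE (adjusted p = 1.31e-05 and 0.0195, limma) and by 0.44 ± 0.10 in SNU1079 at 6 h (adjusted p = 0.00169), although the RBE 16 h value was -0.05 with equal sums and -0.56, a called fall (adjusted p = 0.00483), with ribosomal protein genes as the reference. With that reference the SNU1079 6 h rise was lost (0.23, adjusted p = 0.319). In SNU1079 at 16 h it fell by 0.29 ± 0.10 (adjusted p = 0.0155). That fall was -0.08 without the 3 libraries named above (adjusted p = 0.358), -0.15 without YC-1 16 h replicate 2 and -0.22 without DMSO 16 h replicate 1, none of which passed, nor did a fit of SNU1079 alone (adjusted p = 0.0836). The RBE 16 h call was lost without DMSO 16 h replicate 1 (0.27) or 2 (0.25). The effect fell from 6 h to 16 h by 0.42 ± 0.14 in RBE (adjusted p = 0.0354) and by 0.73 ± 0.14 in SNU1079 (adjusted p = 0.00112).

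Tests of the difference between effects were made in the same fit. From 6 h to 16 h in RBE, the effect became lower for 5 members, where 9.43% of all genes were called lower and 8.8% higher (18.2% in all). In SNU1079 it became lower for 4 members and higher for 1 (LATS2), where 8.53% of all genes were called lower and 8.47% higher (17.0% in all). Fitted on SNU1079 libraries alone, the effect became lower for 2 members and higher for 1. At 6 h, 0 of 10 members differed between the lines by limma, where 1.54% of genes did, and 1 (AMOTL2) had an unadjusted p under 0.05. With array weights, or without the 3 libraries named above, 3 differed at 6 h. At 16 h, 3 members were higher in SNU1079 than in RBE (WWTR1, CTGF and ANKRD1) and 3 were lower (CYR61, AMOTL2 and AJUBA), where 8.17% of genes were called higher and 6.43% lower (14.6% in all). With ribosomal protein genes as the reference, 3 members were higher and 0 lower.

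The control level also moved with time in SNU1079. Under DMSO 3 members were lower at 16 h than at 6 h there, where 4.75% of all genes were called lower (8.57% in all). The log2 differences were -0.89 for CTGF (adjusted p = 1.5e-05, limma), -0.67 for LATS2 (adjusted p = 0.000237) and -0.50 for WWTR1 (adjusted p = 0.0117). In RBE 0 members were called by limma, where 0.0448% of genes were, and 1 (AJUBA) had an unadjusted p under 0.05. The 16 h values of CTGF, LATS2 and WWTR1 in SNU1079 are therefore set against a lower control than the 6 h values.

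Under DMSO 4 members were higher and 4 lower in SNU1079 than in RBE. Of all genes 32.1% were called higher and 35.0% lower (67.1% in all), so the members' count lies near that of genes in general. YAP1 was 3.38-fold higher in SNU1079 (adjusted p = 2.03e-14, limma), CYR61 2.73-fold, ANKRD1 1.65-fold and AMOTL2 1.63-fold. AMOTL1 was 7.97-fold lower in SNU1079 (adjusted p = 9.58e-08, limma), CTGF 2.34-fold, TEAD1 2.30-fold and LATS2 1.90-fold. WWTR1 and AJUBA did not pass, with differences of 0.13 (95% interval -0.04 to 0.31) and 0.09 (95% interval -0.05 to 0.23) on the log2 scale.

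Between genes, levels are compared as normalised count per kb of exon. Under DMSO at 6 h in RBE, CYR61 stood highest at 1781 per kb, followed by ANKRD1 at 1026, AJUBA at 924, CTGF at 863 and WWTR1 at 846, with YAP1 at 260, LATS2 at 198 and AMOTL1 at 48.6. After 16 h of YC-1 in RBE, AJUBA at 969 and AMOTL2 at 903 led the order, and TEAD1 at 198 and YAP1 at 193 stood near its foot. In SNU1079 CYR61 led both under DMSO at 6 h (4684 per kb) and after 16 h of YC-1 (1394 per kb). There TEAD1 was at 327 per kb under DMSO at 6 h and 90.1 after 16 h of YC-1.

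The members differ widely in genomic span, and fold changes of all genes differed by span at 6 h and at 16 h. YAP1 (ENSG00000137693) spans chr11:102110461-102233423, WWTR1 (ENSG00000018408) chr3:149517235-149736714, TEAD1 (ENSG00000187079) chr11:12674591-12944483 and AMOTL1 (ENSG00000166025) chr11:94706431-94876753, in GENCODE 29 on GRCh38. These 4 genes are 123, 219, 270 and 170 kb long. Among the 2365 tested genes of 100 to 300 kb, 60.6% were lower and 5.29% higher in RBE at 16 h, with a median log2 fold change of -0.90, and 53.2% were lower and 7.27% higher in SNU1079, with a median of -0.67. TEAD1, at -1.87 and -1.71, and AMOTL1, at -1.12 and -1.90, lay below both medians. YAP1, at -0.60 and -0.33, and WWTR1, at -0.30 and 0.24, lay above both. The values of AMOTL1 in RBE and WWTR1 in SNU1079 were not called. At 6 h, 35.9% of the genes of 100 to 300 kb were lower and 1.95% higher in RBE (median -0.43). In SNU1079 at 6 h, 38.1% of them were lower and 2.79% higher (median -0.40).

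CTGF (ENSG00000118523, chr6:131948176-131951373), CYR61 (ENSG00000142871, chr1:85580761-85583962) and ANKRD1 (ENSG00000148677, chr10:90912096-90921276) are short genes of 3.20, 3.20 and 9.18 kb. Among the 4832 tested genes under 10 kb, 13.8% were lower and 38.3% higher in RBE at 16 h, with a median of 0.48, and in SNU1079 16.7% were lower and 35.5% higher, with a median of 0.35. CYR61, at -1.26 and -1.70, was lower in both lines. AMOTL2 (ENSG00000114019, chr3:134355874-134375479), AJUBA (ENSG00000129474, chr14:22971174-22982642) and LATS2 (ENSG00000150457, chr13:20973032-21061547) span 19.6, 11.5 and 88.5 kb, in a class with medians of 0.09 in RBE and 0.17 in SNU1079. The part of gene span in these results was not tested.

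**Figure D3:**
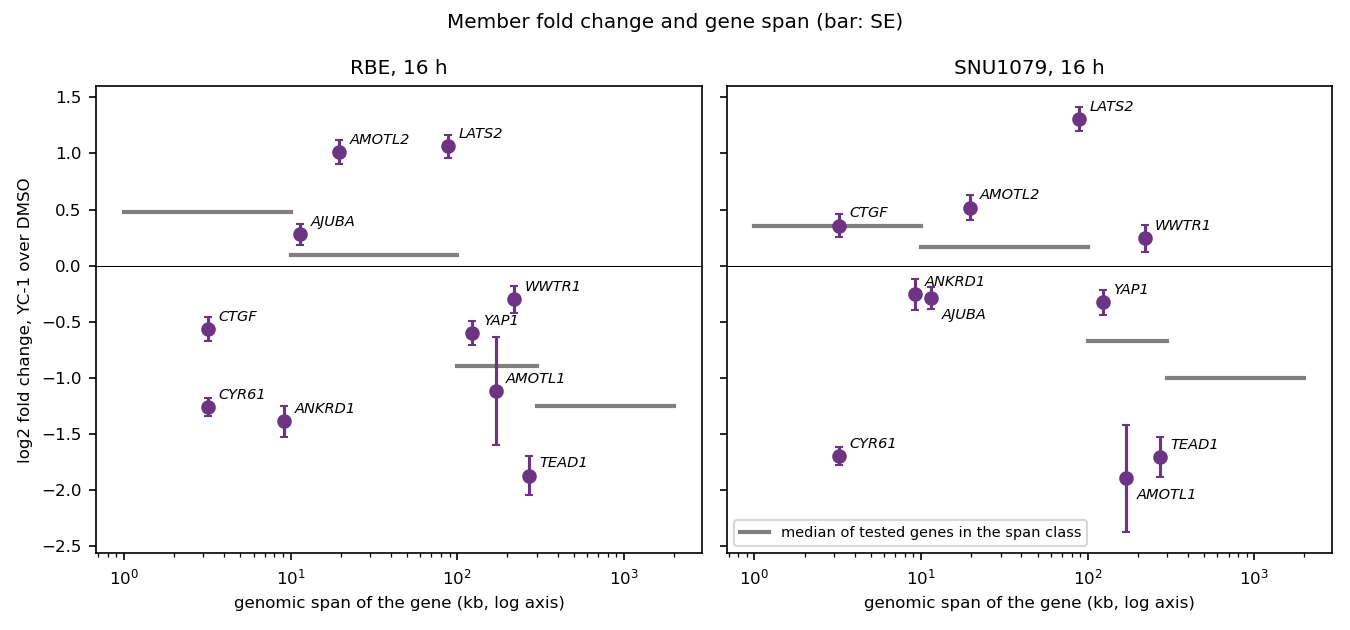
Log2 fold change of each member at 16 h (points, bars SE) against the genomic span of its gene on a log axis, with the median of all tested genes in each span class (grey lines). CYR61, 3.20 kb long, lies at -1.26 in RBE and -1.70 in SNU1079, where genes under 10 kb have medians of 0.48 and 0.35.

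Of the other genes of the pathway, the list of upstream Hippo components (kinases, scaffolds, cadherins and phosphatase partners) had 42 genes tested. Of these, 3 were higher and 14 lower in RBE at 6 h, 6 higher and 26 lower in RBE at 16 h, 3 higher and 18 lower in SNU1079 at 6 h, and 9 higher and 22 lower in SNU1079 at 16 h. The shares of all genes called higher and lower in these comparisons were 11.6% and 12.4%, 27.3% and 26.6%, 14.0% and 14.2%, and 28.7% and 25.8%. Those shares cover genes of every span. Among tested genes of 100 to 300 kb, 60.6% were lower in RBE and 53.2% in SNU1079 at 16 h, and 5.29% and 7.27% were higher. The spans of the listed genes were not compared, for this list or for those that follow, so the counts are not matched for span. Medians were -0.25, -0.80, -0.28 and -0.42. Without the 3 libraries named above the 6 h counts were 7 higher and 17 lower in RBE and 6 higher and 18 lower in SNU1079. With equal sums the 16 h counts were 1 higher and 29 lower in RBE and 3 higher and 25 lower in SNU1079, and with ribosomal protein genes as the reference 1 and 32, and 2 and 26. BTRC, a subunit of the ubiquitin ligase that degrades phosphorylated YAP1, went from 758.3 ± 21.9 to 70.4 ± 12.9 (SD, n = 3) in RBE at 16 h, a log2 fold change of -3.42, and from 739.5 ± 58.0 to 102.3 ± 53.9 in SNU1079 (-2.99). MAP4K3, a kinase of the family that acts beside MST1 and MST2, fell by 2.44 in RBE and 2.61 in SNU1079. TAOK1, which activates the MST kinases, fell by 2.28 in RBE, and the atypical cadherin FAT4 fell by 2.68 in SNU1079.

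The other TEAD factors and their cofactors had 9 genes tested, of which 2 were lower at 6 h and 5 at 16 h in RBE, and 3 were lower at 6 h and 4 at 16 h in SNU1079. Of all genes 12.4%, 26.6%, 14.2% and 25.8% were called lower in the same comparisons. The remaining genes of the list did not pass the test. Without the 3 libraries named above, 4 of the 9 were lower at 6 h in each line, and with ribosomal protein genes as the reference 8 were lower in RBE and 6 in SNU1079 at 16 h. TEAD4 fell from 439.2 ± 15.5 to 249.9 ± 29.8 (SD, n = 3) in RBE at 16 h and from 416.8 ± 37.6 to 143.5 ± 18.7 in SNU1079, log2 fold changes of -0.82 and -1.54. RUNX2, a transcription factor that can bind YAP1, had log2 fold changes of -2.96 in RBE and -1.04 in SNU1079, and both passed the test.

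A list of 17 further YAP1 targets had 1 higher and 8 lower in RBE at 6 h, 4 and 10 in RBE at 16 h, 3 and 7 in SNU1079 at 6 h, and 4 and 8 in SNU1079 at 16 h. Over all genes the shares higher and lower were 11.6% and 12.4%, 27.3% and 26.6%, 14.0% and 14.2%, and 28.7% and 25.8%. Medians were -0.46, -0.61, -0.30 and -0.30. With equal sums the 16 h counts were 1 higher and 13 lower in RBE and 2 higher and 9 lower in SNU1079, and with ribosomal protein genes as the reference 1 and 14, and 2 and 10. GADD45A, a stress and DNA damage response gene, rose from 340.9 ± 5.73 to 5818 ± 226 (SD, n = 3) in RBE at 16 h and from 665.9 ± 152 to 9487 ± 1774 in SNU1079, log2 fold changes of 4.09 and 3.84. ASAP1, a regulator of ARF GTPases, fell by 2.34 in RBE and 1.74 in SNU1079. DOCK5 fell by 2.12 in RBE and RBMS3 by 2.21 in SNU1079.

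Actin and serum response factor genes share many targets with YAP1, and 18 were tested. In RBE 3 were higher and 4 lower at 6 h and 6 and 7 at 16 h, and in SNU1079 2 and 6 at 6 h and 7 and 3 at 16 h. At 16 h 27.3% of all genes were higher and 26.6% lower in RBE, and 28.7% and 25.8% in SNU1079, and several of the list's counts lie near those shares (6 of 18 higher in RBE, 3 of 18 lower in SNU1079). At 6 h the shares of all genes were 11.6% and 12.4% in RBE and 14.0% and 14.2% in SNU1079. With equal sums the 16 h counts were 5 higher and 8 lower in RBE and 7 and 7 in SNU1079, and with ribosomal protein genes as the reference 1 and 11, and 3 and 7. Without the 3 libraries named above, 7 were lower at 6 h in RBE and 9 in SNU1079, and at 16 h RBE had 8 higher and 7 lower and SNU1079 had 9 higher and 4 lower. The coactivators MKL1 and MKL2, which bind the serum response factor, fell, with log2 fold changes of -2.23 and -2.57 in RBE and -2.88 and -2.87 in SNU1079. SRF itself rose by 1.71 in SNU1079, from 638.4 ± 113 to 2098 ± 411 (SD, n = 3), and FHL2, a LIM-domain cofactor, by 1.67 in RBE.

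**Figure D4:**
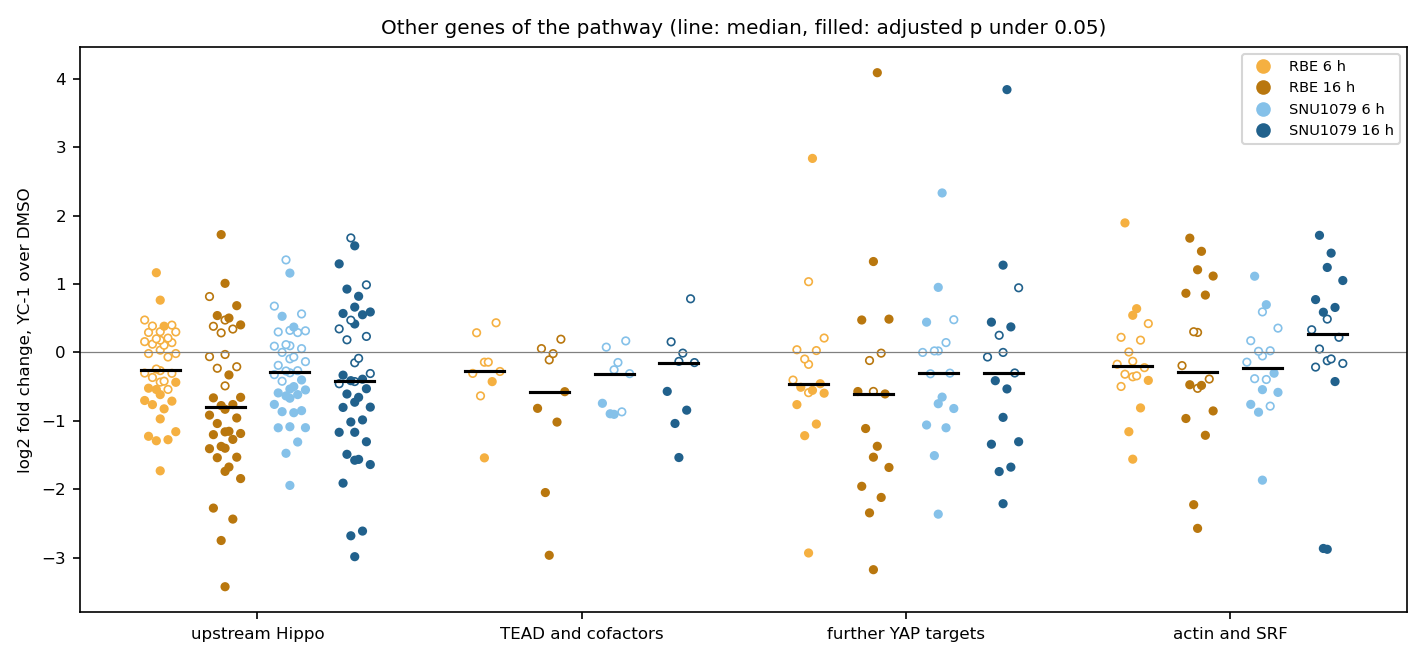
Log2 fold change of YC-1 over DMSO for the genes of 4 related lists (points, filled where the adjusted p was under 0.05), by line and time, with the median of each (line). At 16 h the upstream Hippo genes have medians of -0.80 in RBE and -0.42 in SNU1079, and GADD45A stands apart at 4.09 and 3.84 among the further targets.

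Likeness of pattern was measured as Pearson's r over the 8 group means of log2 values, with each line centred on its own mean, as a description only, since the group means share libraries' scaling. Among the members, TEAD1 and CYR61 ran together (r = 0.98, 8 group means), and AMOTL2 ran with LATS2 (0.91) and against YAP1 (-0.97). CTGF ran weakly with CYR61 (0.29) and more closely with ANKRD1 (0.79). The genes most like TEAD1 were C15orf39, PHF23 and KIAA1468 (0.999, 0.998 and 0.998), and those most like CYR61 were EML1, PARG and CUL1 (0.998, 0.997 and 0.996). Most like CTGF were HCFC2, OTUD4 and SH2B3 (0.990, 0.975 and 0.974), and most like LATS2 were TRIM11, TOMM20 and SERPINB8 (0.999, 0.994 and 0.994).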

How the data were processed

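RNA of 24 libraries was sequenced from TruSeq Stranded mRNA preparations, per the labels' protocols. The authors deposited a table of normalised counts, a signal scaled between libraries, and the submitters' processing notes name STAR, DESeq2 and hg38 without versions or settings. The deposited signal does not fall on whole reads, so no count model was run. For testing, 1 was added to each value and the log2 taken, and limma 3.58.1 was run under R 4.3.3 (intensity trend, 1 mean per group over 24 libraries, 16 residual degrees of freedom, two-sided, Benjamini-Hochberg adjustment over 17860 genes with a normalised count of at least 10 in at least 3 libraries, threshold 0.05). The members, lists and tests were chosen with earlier results of these data known. All members are described. From each other list, up to 3 genes per line at 16 h are named: those called with the largest fold change, no overlap of groups and a higher group averaging 100 or more. The 3 genes most like a member needed a mean of at least 100. In a simulation of RBE at 6 h over 17639 genes, limma recovered 68% of 100 changes of 1 and 97% of 100 changes of 2 on the log2 scale, and 4.62% of 173 calls were false. No other genes were changed in it, while 24.0% of genes were called in the data for that comparison. Its noise was normal on the log2 scale, so its rates need not hold for the data. Alternatives covered pseudocount, filter, scaling, variance model, the line's libraries alone, pooled times, the replicate number as a block and leaving out each library. Gene positions come from GENCODE 29 and promoter windows from RefSeq. RASSF5 matched no row and is not analysed here, and some genes that the rules would name are not reported here. Replicate numbers did not pair libraries: same-numbered libraries correlated at -0.12 to 0.09 in RBE and -0.21 to 0.34 in SNU1079, and 0 and 4 of 18 pairs passed 0.1.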

Additional observations from a re-analysis of the deposited data

Results flagged for a closer look

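These differences between the effects of YC-1 passed limma's test at an adjusted p under 0.05, and all are log2 differences with the SE of the fit. Between times, 16 h minus 6 h in RBE, the effect was lower for TEAD1 (-1.27 ± 0.25, adjusted p = 0.0014), CTGF (-0.61 ± 0.15, 0.00749), CYR61 (-0.55 ± 0.11, 0.00206), ANKRD1 (-1.72 ± 0.20, 9.24e-06) and AJUBA (-0.42 ± 0.14, 0.0354). In SNU1079 it was lower for TEAD1 (-1.04 ± 0.25, adjusted p = 0.00743), CYR61 (-1.003 ± 0.11, 6.78e-06), ANKRD1 (-0.72 ± 0.20, 0.0162) and AJUBA (-0.73 ± 0.14, 0.00112), and higher for LATS2 (0.82 ± 0.15, 0.000769). AJUBA in SNU1079 rests in part on a 16 h fall that was lost without the 3 SNU1079 libraries with the largest deviation in their groups. In a fit of the SNU1079 libraries alone, 1 member was called higher and 2 lower for this difference of times.

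Between lines, SNU1079 minus RBE at 16 h, the effect was higher for WWTR1 (0.55 ± 0.17, adjusted p = 0.0332, limma), CTGF (0.92 ± 0.15, 0.000337) and ANKRD1 (1.13 ± 0.20, 0.000604). It was lower for CYR61 (-0.44 ± 0.11, adjusted p = 0.0121), AMOTL2 (-0.49 ± 0.16, 0.037) and AJUBA (-0.57 ± 0.14, 0.00768). CTGF and CYR61, both matrix protein genes used as YAP1 readouts, thus differed between the lines in opposite directions with the deposited scaling. With ribosomal protein genes as the reference, 3 members were called higher and 0 lower. The differences of CYR61, AMOTL2 and AJUBA were then not called lower.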

How the results depend on the processing

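Apart from fits without 1 library, 121 counts of members under an alternative stayed within 1.5 times the reported one and 12 did not. One alternative, dropping the 3 SNU1079 libraries with the largest deviation in their groups, was chosen after seeing the data. With ribosomal protein genes as the reference (78 genes), which moves the median of all genes by -0.83 in RBE and -0.47 in SNU1079 at 16 h, 4 members were called at 6 h in each line, 8 for the difference of times in RBE and 3 for the difference of lines at 16 h. With array weights, 3 were called for the difference of lines at 6 h, 1 for DMSO over time in RBE and 5 in SNU1079. Fitting only the line's libraries gave 4 in SNU1079 at 6 h, 3 for the difference of times in SNU1079 and 1 for DMSO over time in RBE. Without the 3 libraries, 3 were called for the difference of lines at 6 h and 5 for DMSO over time in SNU1079. Leaving out 1 library gave 4 to 8 members in RBE at 6 h (4 without DMSO 6 h replicate 2 or 3) and 5 to 9 in SNU1079 at 6 h (5 without DMSO 6 h replicate 3). The cause of these shifts was not tested.

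Direction changed with equal sums for WWTR1 (-0.12) and CTGF (-0.0041) in SNU1079 at 16 h and AJUBA in RBE at 16 h (-0.048), and with ribosomal protein genes as the reference for the same 3 (-0.23, -0.12 and -0.56). With times pooled it changed for WWTR1 in SNU1079 at 6 h (0.021), CTGF (-0.26) and ANKRD1 (-0.53) in RBE at 6 h, and ANKRD1 (0.10) and AJUBA (0.074) in SNU1079 at 16 h, since a pooled value stands for both times. The replicate number as a block gave 7, 9, 9 and 8 members in the 4 comparisons, as without it, and changed no call of a member in them; between the lines under DMSO it gave 9 members in place of 8. For single members under alternatives other than leaving out 1 library, 455 values kept their direction and side of the threshold, 33 lost a call, 21 gained one and 11 changed direction. Read depth is unknown and sets no limit that can be stated.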

Other observations

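The ratio of 2 target genes within a library does not depend on how libraries are scaled to each other, and was examined after the values were seen. The log2 ratio of CTGF to CYR61 in RBE went from -1.11 ± 0.07 to -0.36 ± 0.05 (SD, n = 3) at 6 h and from -1.005 ± 0.03 to -0.31 ± 0.09 at 16 h. In SNU1079 it went from -3.31 ± 0.03 to -2.27 ± 0.10 at 6 h and from -4.15 ± 0.05 to -2.09 ± 0.31 at 16 h. The YC-1 libraries were all above the DMSO libraries in each of these 4 comparisons, with a two-sided exact permutation p of 0.1, the smallest that 3 against 3 allows (0.114 after Benjamini-Hochberg adjustment over 8 ratios). The ratio of ANKRD1 to CYR61 was higher by 1.04 in RBE at 6 h and by 1.16 and 1.44 in SNU1079 at 6 h and 16 h (exact permutation p = 0.1 for each), and differed by -0.13 in RBE at 16 h (exact permutation p = 0.2). These ratios show unequal change of the genes, not which of them changed.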
